A study of Mus musculus with 7 samples.

Results

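The REV-ERB and ROR nuclear receptors were followed here through 4 genes, Nr1d1 (REV-ERBα), Nr1d2 (REV-ERBβ), Rora (RORα) and Rorb (RORβ), among 21965 genes in the count table. They were taken by gene symbol, though with earlier results of these data known, and all 4 passed the filter on low counts.

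REV-ERB and ROR proteins bind the same DNA element, the RORE, an A/T-rich stretch followed by the core AGGTCA. REV-ERBα and REV-ERBβ bind heme and repress through the NCoR corepressor and its histone deacetylase, while ROR proteins recruit coactivators and activate. In the circadian clock, BMAL1 with CLOCK or NPAS2 activates the REV-ERB genes through E-boxes, and REV-ERB in turn represses Arntl, the gene that encodes BMAL1. In the nervous system RORα is known for its need in cerebellar Purkinje cells and RORβ for its expression in retina, cortex and spinal interneurons.

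The libraries came from the epicenter of a moderate T9 contusion (50 kdyn) of the mouse spinal cord, 72 h (day 3) after injury, and all 7 mice were injured. Of these, 3 libraries were labelled Bmal1-/- (germline Arntl tm1Bra on C57BL/6, bred from heterozygous parents) and 4 were wild type (WT) C57BL/6, mostly bought from the supplier rather than littermates. In the paper both groups are of the C57Bl/6J substrain. Mice were 8–10 weeks old, of both sexes, and perfused with saline. Tissue was collected in 1 morning window, ZT 3–5, so a shift in the phase of a rhythm and a change of its mean level cannot be told apart, and no uninjured cord was analysed here.

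Libraries held 38529644 to 44096737 counts. Levels are given as CPM, which are counts scaled to a common library size with TMM factors, or, between genes, as CPM per kilobase of merged exons (RPKM), and differences as log2 fold change of libraries labelled Bmal1-/- over WT, with the standard error (SE) and the adjusted p of edgeR's quasi-likelihood test over 15743 genes. A gene was called at an adjusted p under 0.05, which 144 genes passed as lower (0.915% of those tested) and 103 as higher (0.654%), 1.57% in all. An unadjusted p under 0.05 was reached by 20.9% of the genes tested. The targeted gene went against its label: Arntl read 24.1, 24.2 and 22.5 CPM in the libraries labelled Bmal1-/- and 14.7, 15.3, 11.9 and 13.4 CPM in WT. The allele removes an internal part of Arntl, and counts over the whole gene take in the rest, so this is no check of genotype. In a separate set of mice on the same day after injury, the paper reports no detectable Bmal1 mRNA by qPCR in Bmal1-/- cord. It also reports Nr1d1 and Dbp as reduced and Cry1 as raised there. The tissue held the markers of cord cells, since no neuron, astrocyte, oligodendrocyte, endothelial or myeloid marker was at 0 in any library. WT replicate 3 stood apart from the other libraries on the leading principal components, with the lowest sum of 12 neuron markers (2106 CPM, against 4084 to 5473 in the other WT libraries). Fewer cells of a type and less RNA per cell cannot be told apart in such bulk tissue.

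The REV-ERB genes are shown with their upstream sequence because they moved together. Nr1d1 (ENSMUSG00000020889) lies on chr11:98767932-98775333, minus strand, and Nr1d2 (ENSMUSG00000021775) on chr14:18204054-18239127, minus strand (GRCm38). Stretches upstream of each gene, chr11:98775378-98775627 and chr14:18239128-18239356 on the minus strand (RefSeq, GRCm38.p6), read as follows. Both lie outside annotated genes. Starts named below are those of the windows searched, which differ from the gene ends given here. The Nr1d2 stretch stops short of its start.
Nr1d1: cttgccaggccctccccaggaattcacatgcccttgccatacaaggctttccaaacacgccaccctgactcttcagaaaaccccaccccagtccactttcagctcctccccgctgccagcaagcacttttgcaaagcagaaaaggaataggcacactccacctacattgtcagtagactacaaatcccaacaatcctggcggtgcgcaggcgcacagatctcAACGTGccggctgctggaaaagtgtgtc
Nr1d2: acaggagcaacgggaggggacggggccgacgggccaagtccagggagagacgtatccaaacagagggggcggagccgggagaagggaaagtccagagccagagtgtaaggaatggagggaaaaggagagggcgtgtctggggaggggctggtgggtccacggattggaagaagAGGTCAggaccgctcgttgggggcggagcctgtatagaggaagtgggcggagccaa
Capitals mark the only matches found when windows from 250 bases before to 50 bases after a start were searched on both strands for the E-box CACGTG, its variant CACGTT, the D-boxes TTATGTAA and TTACGTAA, the RORE, and its cores AGGTCA and GGGTCA. In Nr1d1 that is CACGTT read on the other strand, 28 bases before the start, a motif that 4.68% of 32851 promoter windows hold. In Nr1d2 it is AGGTCA, 77 bases before the start, which 16.3% of windows hold. No E-box was in these windows, and elements farther away were not searched. All 4 members had windows. That of Rora held none of these motifs, and a window of Rorb held CACGTT.

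Nr1d1 and Nr1d2 were both lower in the libraries labelled Bmal1-/-, by about the same factor. Nr1d1 read 5.31, 5.41 and 7.28 CPM in the libraries labelled Bmal1-/- and 36.4, 36.8, 29.2 and 34.4 CPM in WT. Even the highest library labelled Bmal1-/- was far below the lowest WT library, and the groups did not overlap, a separation that 13.4% of all genes tested showed in the lower direction and 26.9% in either. The mean fell from 34.2 ± 3.47 CPM (SD, n = 4) to 6.00 ± 1.11 CPM (SD, n = 3), a level 5.70-fold lower. The log2 fold change was -2.51 (SE 0.15, 95% interval -2.86 to -2.16, edgeR adjusted p = 0.000456). It rested on 209 to 287 counts against 1171 to 1430.

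Nr1d2 read 9.63, 11.7 and 13.1 CPM in the libraries labelled Bmal1-/- and 67.3, 85.1, 62.0 and 80.5 CPM in WT. Again no library of one group came near the other group. The level was 6.42-fold lower, with a log2 fold change of -2.68 (SE 0.16, 95% interval -3.05 to -2.31, edgeR adjusted p = 0.000456). By p-value Nr1d2 stood at place 12 and Nr1d1 at place 13 of 15743 genes. By size of the fall they stood at places 65 and 70 from the lowest. The intervals of the paralogs overlapped widely, and their difference was not tested. DESeq2, which called 5.63% of its genes lower, called both. Both calls held when any library was left out, with log2 fold changes of -2.67 to -2.43 for Nr1d1 and -2.79 to -2.57 for Nr1d2. Within mice coded F (2 against 2) the log2 ratios of mean CPM were -2.77 and -2.84, and within mice coded M (1 against 2) -2.13 and -2.44, too few for a test.

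Markers of skeletal muscle, Schwann cells and endothelial cells moved the same way as the REV-ERB genes. All 8 skeletal muscle markers were lower without overlap and 7 of them were called. Over all genes tested, 13.4% were lower without overlap and 0.915% were called lower. The muscle sum was 6.23 to 8.40 CPM in the libraries labelled Bmal1-/- against 51.6 to 68.5 CPM in WT. Only Myh4, a fast myosin, was at 0 in a library, and the rest of the list was detected in all 7. All 3 Schwann cell markers were also lower without overlap, with sums of 3.28 to 9.51 against 19.4 to 235 CPM, though edgeR called 0 of them (3 at an unadjusted p under 0.05, and 3 by DESeq2). All 6 endothelial markers had fold changes below 0, 3 without overlap, with sums of 337 to 387 against 400 to 654 CPM. Cdh5 was called (edgeR adjusted p = 0.0466), though not when any library but WT replicate 3 was left out. The pericyte sum was lower without overlap, at 204 to 262 against 278 to 338 CPM, but 2 of its 4 fold changes were above 0. All 5 fibroblast fold changes were below 0, 1 without overlap, and their sums overlapped. The fibroblast sum was highest of all in Bmal1-/- replicate 2 (2213 CPM). Bmal1-/- replicates 1 and 3 had 376 and 298 CPM, and WT libraries 1102 to 1817 CPM. Neutrophil (3 of 3) and myeloid (6 of 7) fold changes were also below 0, with 0 called and overlapping sums. Muscle expresses both REV-ERB genes, and the part of these tissues and cells in their fall was not tested.

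On the opposite strand, Thra, the thyroid hormone receptor α gene, ends inside Nr1d1, and the genes share 263 exon bases. The libraries were stranded, but whether strand was used in counting is not given in the sources used here, so reads in the shared stretch may belong to either gene. Thra read 380, 363 and 414 CPM in the libraries labelled Bmal1-/- and 287, 287, 206 and 279 CPM in WT, the opposite direction to Nr1d1. Its log2 fold change of 0.54 did not pass (SE 0.13, edgeR adjusted p = 0.0923). It passed in DESeq2 (0.55, adjusted p = 0.00268) and without WT replicate 3, at 0.44 (edgeR adjusted p = 0.0177).

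**Figure D1:**
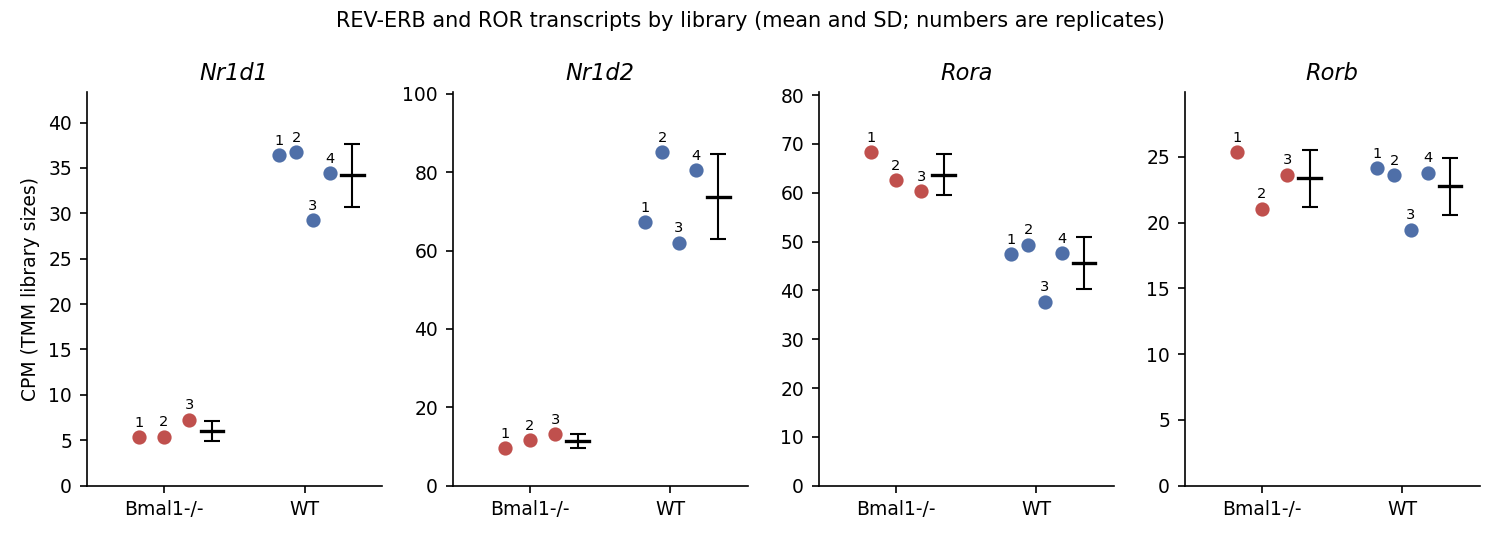
CPM of Nr1d1, Nr1d2, Rora and Rorb in each library, with replicate numbers beside the points, and the group mean with its SD drawn to the right. Nr1d1 and Nr1d2 sit at 5.31 to 13.1 CPM in the libraries labelled Bmal1-/- and at 29.2 to 85.1 CPM in WT, Rora is higher without overlap, and Rorb overlaps.

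Neither ROR gene was called. Rora (ENSMUSG00000032238, chr9:68653786-69388246, plus strand, GRCm38) read 68.3, 62.5 and 60.3 CPM in the libraries labelled Bmal1-/- and 47.4, 49.4, 37.6 and 47.7 CPM in WT. All 3 values stood above all 4 WT values, and WT replicate 3 was the lowest library. A separation of this kind in the higher direction occurred in 13.4% of all genes tested. The log2 fold change was 0.48 (SE 0.10, 95% interval 0.24 to 0.73), and with an edgeR adjusted p of 0.0731 it was not called.

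Rora's call turned on the test and on 1 library. DESeq2, which called 3.50% of the genes it tested as higher, called Rora at a log2 fold change of 0.49 (adjusted p = 0.00113). Without WT replicate 3 the difference was smaller, 0.40, and passed in edgeR (adjusted p = 0.0178), a setting in which 291 genes rather than 103 were called higher. Neuron markers moved in the same direction as Rora: the sum of the 12 was 5515 to 6854 CPM in the libraries labelled Bmal1-/- and 2106 to 5473 CPM in WT. All 12 had fold changes above 0 and 7 did not overlap. Over all genes tested, 13.4% were higher without overlap and 13.4% lower. None of the 12 passed in edgeR, where 3 (Gad1, Gad2 and Slc32a1, genes of GABA synthesis and loading) had an unadjusted p under 0.05, and 1 passed in DESeq2. The 8 astrocyte markers summed to 16241 to 18733 CPM against 10982 to 15477 CPM, again lowest in WT replicate 3. Singly they were mixed, with 5 fold changes above 0 (4 without overlap) and 3 below (1 without overlap). Of the 8, edgeR called 0 and DESeq2 called 2. The part of these cell types in the Rora values was not tested. A short antisense gene, Gm15511, shares 82 exon bases with Rora and was not analysed here.

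Rorb (ENSMUSG00000036192, chr19:18930605-19111196, minus strand, GRCm38) read 25.4, 21.0 and 23.6 CPM in the libraries labelled Bmal1-/- and 24.1, 23.6, 19.5 and 23.8 CPM in WT. The groups overlapped, and the lowest value was again WT replicate 3. The log2 fold change was 0.04 (SE 0.10, 95% interval -0.21 to 0.28, edgeR adjusted p = 0.840), an interval that leaves room for a change of either sign within those bounds. Its sign turned to -0.025 without Bmal1-/- replicate 1 and to -0.031 without WT replicate 3.

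**Figure D2:**
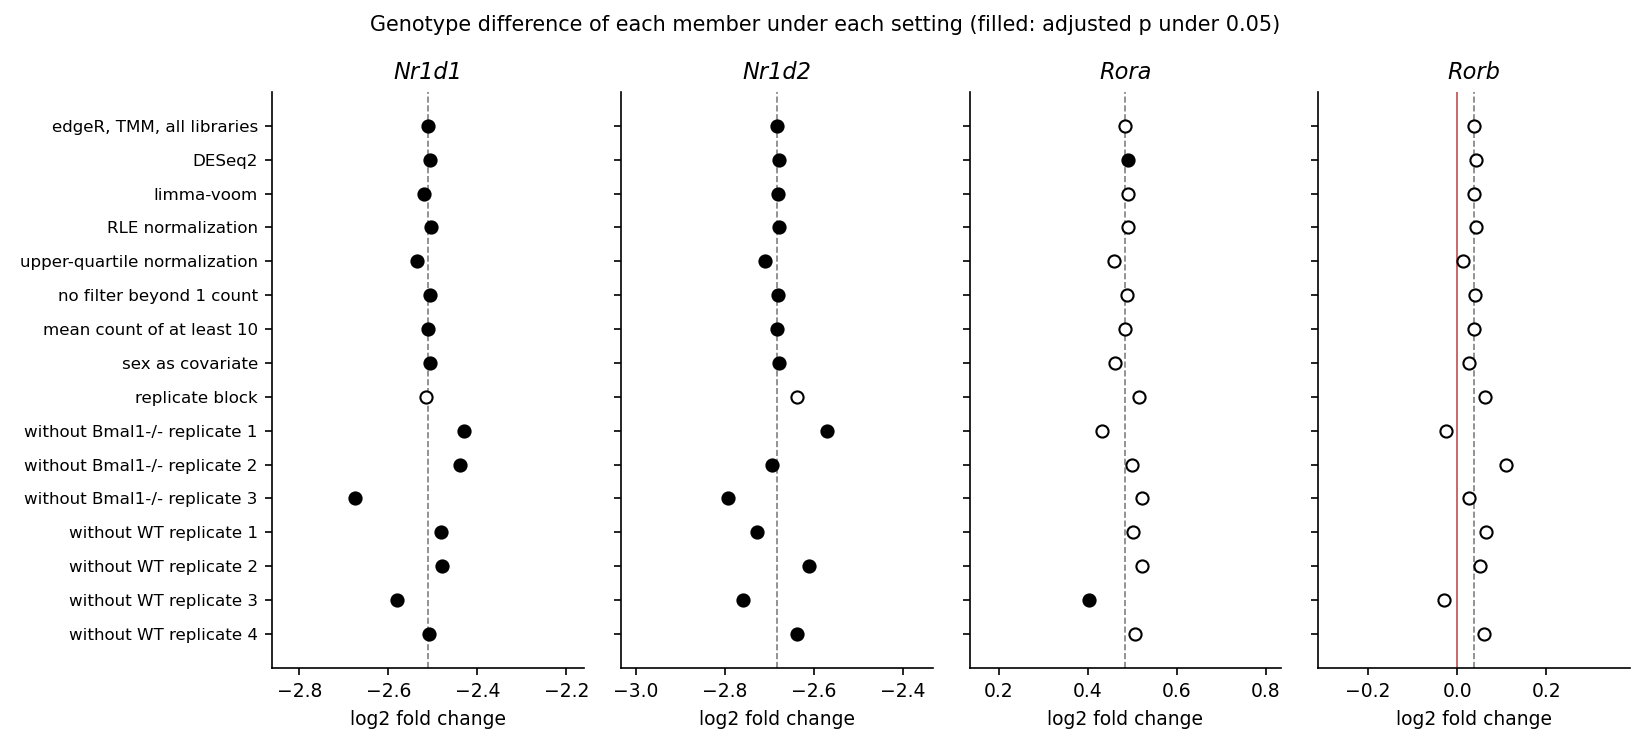
Log2 fold change of each member (horizontal axes, each spanning the same width) with all libraries and under each other test, scaling, filter, covariate or left-out library, filled where the adjusted p was under 0.05. Dashed lines mark the value with all libraries and the red line marks 0. Nr1d1 and Nr1d2 stay filled except with the replicate block, which leaves out WT replicate 4. Rora is filled with DESeq2 and without WT replicate 3, and Rorb crosses 0 in 2 settings.

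Per length, the order of the members differed between the groups. In WT, Nr1d2 (13.6 ± 2.01 RPKM, SD, n = 4) and Nr1d1 (11.1 ± 1.13 RPKM) came before Rora (3.48 ± 0.41 RPKM) and Rorb (2.05 ± 0.20 RPKM). The ranges of Nr1d2 and Nr1d1 overlapped over WT libraries, at 11.5 to 15.7 and 9.50 to 11.9 RPKM, although Nr1d2 was the higher of the pair in each of the 4. Rora and Rorb were separated from their neighbours in every WT library. In the libraries labelled Bmal1-/-, Rora came first at 4.87 ± 0.32 RPKM (SD, n = 3). Nr1d2 (2.12 ± 0.32 RPKM), Rorb (2.11 ± 0.20 RPKM) and Nr1d1 (1.95 ± 0.36 RPKM) followed with overlapping ranges.

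Summed per length, REV-ERB transcripts outnumbered ROR transcripts in WT and were outnumbered by them in the libraries labelled Bmal1-/-. The ratio of Nr1d1 plus Nr1d2 to Rora plus Rorb was 0.466, 0.586 and 0.710 in the libraries labelled Bmal1-/- and 4.18, 4.69, 4.52 and 4.50 in WT. WT replicate 3, low in all 4 members, was not apart from the other WT libraries in this ratio. The group means were 0.587 ± 0.122 (SD, n = 3) and 4.47 ± 0.21 (SD, n = 4), which differ 7.61-fold (6.90 to 8.50 with a library left out). Most of this came from the REV-ERB sum, 4.07 ± 0.66 against 24.7 ± 2.88 RPKM, while the ROR sum was 6.98 ± 0.46 against 5.54 ± 0.60 RPKM. The ratio is a description of transcripts, and receptor protein was not measured in these files. Within the pairs, Nr1d2 over Nr1d1 overlapped between the groups (1.02 to 1.23 against 1.05 to 1.33), and Rora over Rorb did not (2.16 to 2.52 against 1.64 to 1.77).

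**Figure D3:**
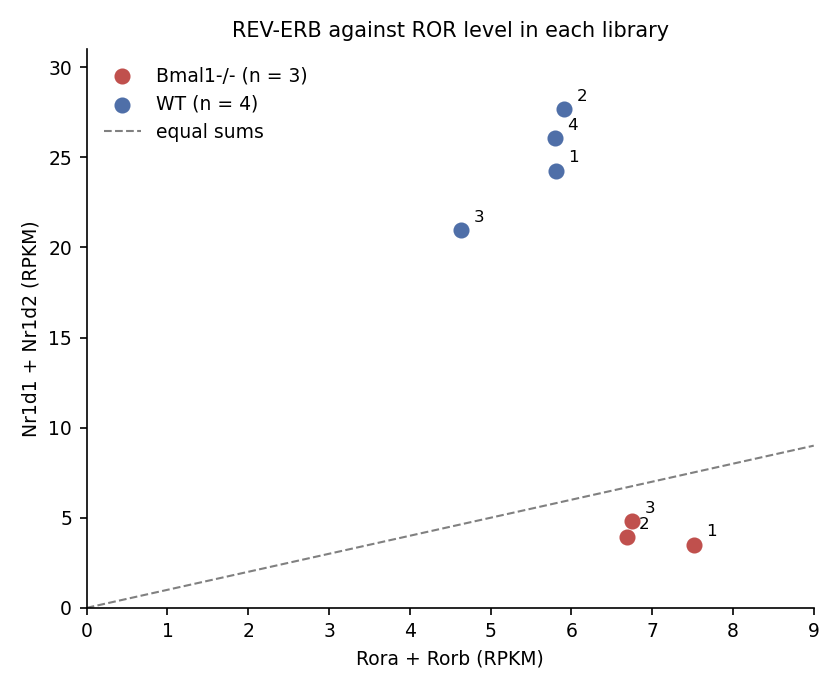
Sum of Nr1d1 and Nr1d2 (vertical axis, RPKM) against the sum of Rora and Rorb (horizontal axis, RPKM) in each library, numbered by replicate, with a dashed line where the sums are equal. All 4 WT libraries lie far above the line, with ratios of 4.18 to 4.69, and all 3 libraries labelled Bmal1-/- lie below it, with ratios of 0.466 to 0.710.

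Nuclear receptors share a DNA-binding and a ligand-binding domain, and most respond to small lipophilic ligands. Of the 44 other receptor genes listed, 35 were tested, and 1 was called (2.86%, beside 1.57% of all genes tested). That was Nr2f2 (COUP-TFII, a receptor of venous endothelium and mesenchyme), lower at a log2 fold change of -0.94 (edgeR adjusted p = 0.0473). Its call was lost in limma-voom (adjusted p = 0.0564), with sex as a covariate (0.0677) and without Bmal1-/- replicate 1 or 3 or WT replicate 1 or 2 (0.0902 to 0.205). The median log2 fold change of the 35 was 0.02, beside -0.01 over all genes tested. Among the 39 tested receptors, members included, Nr1d2 and Nr1d1 had the 2 lowest fold changes. By level per length, Nr1d2 and Nr1d1 held places 4 and 6 in WT and places 20 and 23 in the libraries labelled Bmal1-/-. Rora moved from place 17 to 11, and Rorb from 23 to 21.

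**Figure D4:**
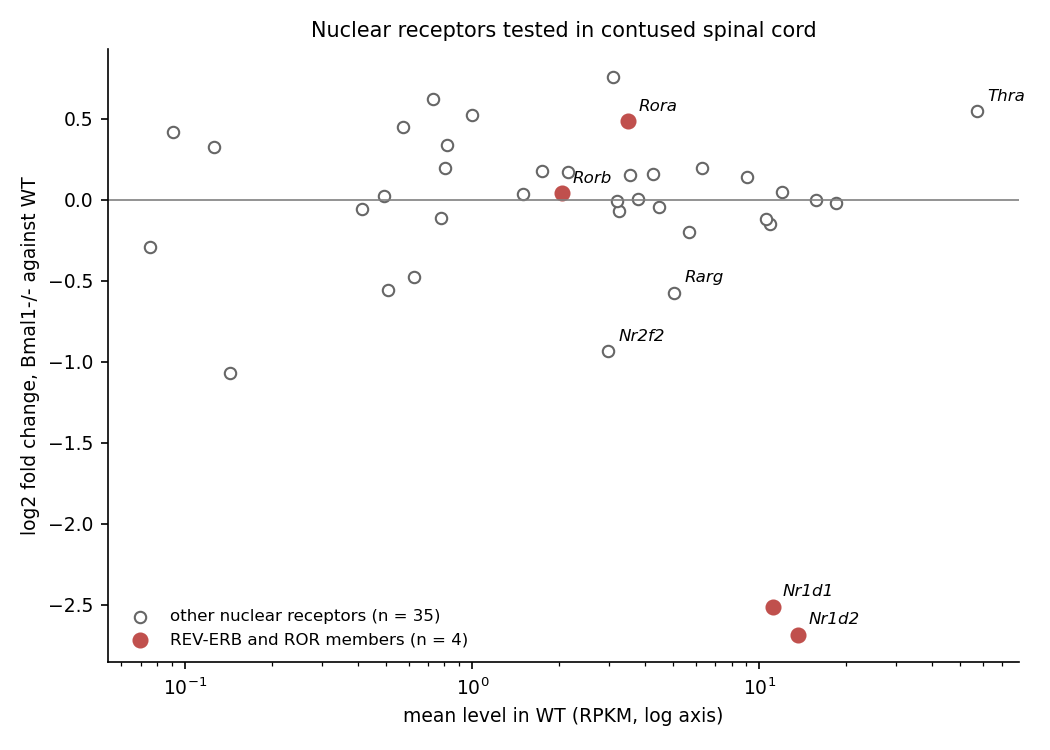
Log2 fold change (vertical axis) of the 39 tested nuclear receptor genes against their mean level in the 4 WT libraries (RPKM, log axis), with the 4 members filled. Nr1d1 and Nr1d2 stand alone at -2.51 and -2.68, while the other receptors lie between -1.07 and 0.76.

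Genes reported as REV-ERB or ROR targets were read in 3 lists, of clock, metabolic and inflammatory genes. The lists were chosen with earlier results of these data known, so their counts are descriptions and no independent test. Some listed genes are not reported here and were left out of the counts. Of their 28 genes 23 were tested and 7 were called, all of them higher, and 5 of those 7 belong to the clock list. The 7 were 30.4% of the listed genes tested. Over all genes tested, 0.654% were called higher and 1.57% in either direction. Over all 23, 12 fold changes were below 0 and 11 above it, with a median of -0.03. Windows of the kind searched above were found for 21 of the 28 genes. Those of Lpl, Elovl3, Apoc3, Ccl2, Mmp9, Tlr4 and C4b were not used here.

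Of the 7 called genes, 4 are shown because their windows held the motif, each as 30 bases from RefSeq (GRCm38.p6) on the strand that reads AGGTCA.
Arntl: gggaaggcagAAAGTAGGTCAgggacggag
Clock: ctgtcatctgtcAGGTCAgaggccaaagct
Nfil3: atgtgtgttagtAGGTCAgttccgagcgcc
Fabp7: ggttagcggagtAGGTCAagatcctcccag
Capitals mark a full RORE in Arntl and the core AGGTCA in the others. The Arntl stretch is chr7:113207527-113207556 (plus strand), in a non-coding exon, and its RORE begins 26 bases after a start. A full RORE was in 0.384% of promoter windows, and among the windows of the listed targets in 1 of 29. The Clock stretch, chr5:76303604-76303633 (plus strand), lies in an intron of that gene. The stretches of Nfil3, chr13:52981034-52981063 (plus strand), and Fabp7, chr10:57784740-57784769 (minus strand), lie in a non-coding exon and outside annotated genes. AGGTCA was in 7 of the 29 target windows (24.1%), against 16.3% of all windows. Among these were windows of Plin2 and Ucp1, which were not called, and of G6pc, which was not tested.

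All 5 genes of the clock list rose in the libraries labelled Bmal1-/-, each without overlap. Over all genes tested, 13.4% were higher without overlap. Npas2, the partner that can replace CLOCK, read 67.2, 62.7 and 54.1 CPM in the libraries labelled Bmal1-/- and 12.2, 10.3, 6.89 and 10.6 CPM in WT, a log2 fold change of 2.62 (SE 0.19, edgeR adjusted p = 0.000918). Cry1, a repressor of CLOCK and BMAL1, read 41.5, 40.1 and 44.8 CPM against 15.0, 12.9, 13.1 and 15.4 CPM, and rose by 1.58 on the log2 scale. The groups were far apart for both. Nfil3, a repressor that acts at D-boxes, read 28.2, 30.1 and 26.7 CPM against 15.4, 14.1, 15.8 and 13.8 CPM, with a log2 fold change of 0.94. These 3 calls held with each library left out.

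Arntl rose by 0.77 on the log2 scale (SE 0.10, edgeR adjusted p = 0.0155), with the limit on its counts given above. Clock, the usual partner of BMAL1, read 124, 123 and 128 CPM in the libraries labelled Bmal1-/- and 89.8, 97.0, 80.5 and 90.8 CPM in WT, a log2 fold change of 0.48 (edgeR adjusted p = 0.0247). Its size was that of Rora, whose adjusted p was higher. Leaving out Bmal1-/- replicate 1, 2 or 3 or WT replicate 4 ended the Arntl call (adjusted p up to 0.102), and leaving out any of these or WT replicate 1 ended the Clock call (up to 0.132), as did sex as a covariate (0.0532).

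Of the metabolic, neural and growth targets, 10 of 15 were tested and Fabp7 alone passed. Fabp7, the brain fatty acid binding protein of radial glia and astrocytes, read 1071, 993 and 822 CPM in the libraries labelled Bmal1-/- and 169, 169, 205 and 150.1 CPM in WT. No library came near the other group, and the log2 fold change was 2.47 (SE 0.14, edgeR adjusted p = 0.000456). Of the others, 6 had fold changes below 0 and 3 above it. Cdkn1a, the cell cycle inhibitor p21, was higher without overlap, at 0.54, and was not called (edgeR adjusted p = 0.0845). Stk11 (-0.19) and Pck1 (-0.79, on 8 to 24 counts) were lower without overlap. They were not called either (edgeR adjusted p = 0.238 and 0.222). Cidec, Elovl3, G6pc, Apoc3 and Fgf21, mostly genes of liver and fat, had too few counts to test.

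Among the 8 inflammatory targets, all of which were tested, C4b passed and 6 fold changes were below 0. C4b, a complement component, read 776, 877 and 709 CPM in the libraries labelled Bmal1-/- and 374, 484, 460 and 482 CPM in WT, a log2 fold change of 0.81 (SE 0.12, edgeR adjusted p = 0.0289). The call was lost without any 1 library except WT replicate 3 (adjusted p up to 0.135) and with sex as a covariate (0.0627). Ccl2, the monocyte chemokine, read 11.9, 11.1 and 8.04 CPM against 25.3, 17.5, 60.8 and 21.6 CPM, with the highest value in WT replicate 3 and no overlap between the groups. Its log2 fold change of -1.60 was not called (SE 0.45, edgeR adjusted p = 0.132). The paper, which used DESeq2, lists Ccl2 among its downregulated genes and reports it lower by qPCR. Il6, Il1b, Nlrp3, Cx3cr1 and Mmp9 overlapped between the groups, and Tlr4 was lower without overlap at -0.40 (adjusted p = 0.172). DESeq2 called 2 genes of the list, 1 of them lower. The list's median was -0.29.

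**Figure D5:**
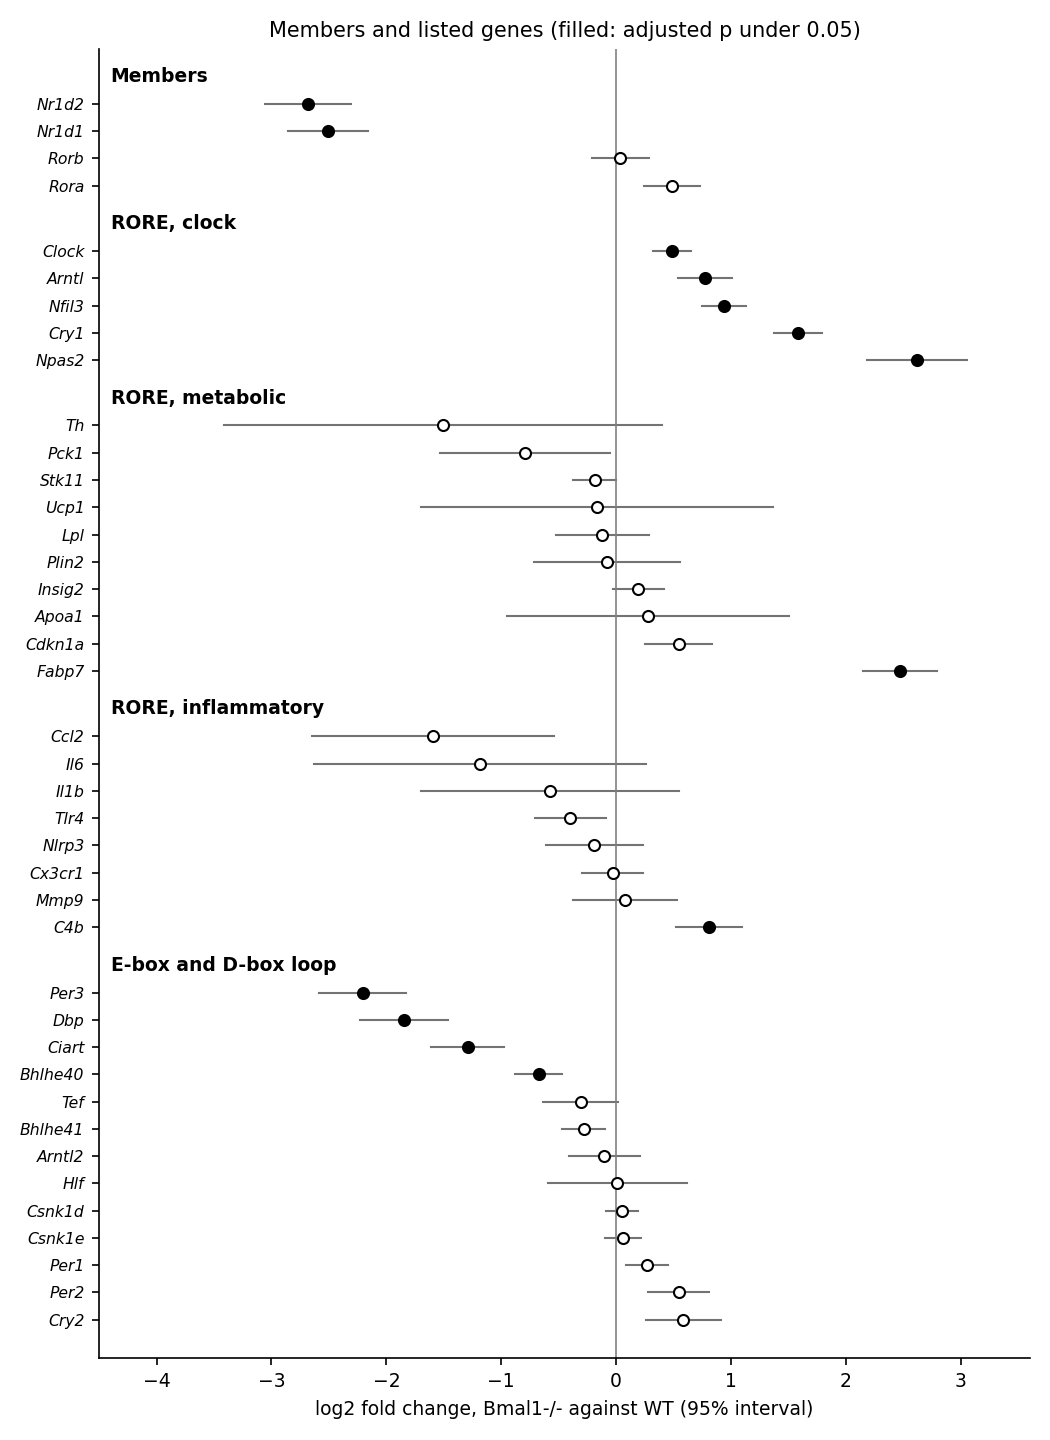
Log2 fold change with its 95% interval (horizontal axis) for the 4 members, the tested genes of the 3 RORE lists and the remaining genes of the clock loop, filled where the edgeR adjusted p was under 0.05. Nr1d1 and Nr1d2 lie near -2.5, all 5 clock targets lie above 0, and the metabolic and inflammatory targets spread to both sides of 0.

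The genes upstream of REV-ERB were listed as a loop of 18 factors acting at E-boxes and D-boxes and their repressors. All 18 were tested, and 4 were called lower and 5 higher, against 0.915% and 0.654% of all genes tested. The 5 were Arntl, Clock, Npas2, Cry1 and Nfil3, which are also RORE targets. Per3, a period gene, read 7.67, 7.12 and 7.46 CPM in the libraries labelled Bmal1-/- and 32.3, 37.1, 26.3 and 41.4 CPM in WT, a log2 fold change of -2.21 (SE 0.16, edgeR adjusted p = 0.00115). Dbp, an activator at D-boxes, read 8.72, 7.80 and 8.83 CPM against 27.5, 29.3, 25.3 and 39.3 CPM, a log2 fold change of -1.85 (adjusted p = 0.00328). No library of either gene came near the other group, and both calls held with each library left out. Dbp shares 539 exon bases with Sphk2 on the other strand.

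Ciart, a repressor of CLOCK and BMAL1, was lower at -1.29 (edgeR adjusted p = 0.00696, lost without Bmal1-/- replicate 1 at 0.0622). Bhlhe40, a repressor at E-boxes, was lower at -0.67 (adjusted p = 0.0155, lost without Bmal1-/- replicate 1 or 3 or WT replicate 2, at up to 0.0990). Per2 (0.54), Cry2 (0.58) and Per1 (0.27) were higher and Bhlhe41 (-0.28) lower without overlap, but edgeR called none of the 4 (adjusted p = 0.0688, 0.0932, 0.143 and 0.133). DESeq2 called all 4. Without WT replicate 3, Per2 and Cry2 passed in edgeR (adjusted p = 0.0261 and 0.0176), as did Tef, a further D-box activator (0.0296). With all libraries Tef overlapped at -0.31. Hlf (0.01), Arntl2 (-0.10) and the kinases Csnk1d (0.05) and Csnk1e (0.06) also overlapped, and the signs of Hlf and Arntl2 turned under other settings.

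No gene listed as a partner of the receptors was called. Unadjusted counts below stand beside a share of 20.9% over all genes tested. Of the 6 genes of the NCoR and SMRT corepressor complex edgeR called 0 (0 at an unadjusted p under 0.05, and 0 by DESeq2), with fold changes of -0.20 to 0.04. The smallest p-values belonged to Gps2, Tbl1xr1 and the deacetylase gene Hdac3. Of 9 coactivator genes 0 were called (1 unadjusted, 0 by DESeq2), and Ppargc1b, Ncoa2 and Crebbp had the smallest p-values at 0.57, 0.13 and 0.11. Of 5 genes for ligases and a kinase that set REV-ERB stability 0 were called (0 unadjusted, 0 by DESeq2), and Huwe1, Fbxw7 and Mycbp2 came first at 0.21, 0.22 and 0.33.

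Heme is the ligand of the REV-ERB proteins, and sterols can bind ROR proteins, so enzymes of both were listed. Of 11 heme genes edgeR called 0 (1 at an unadjusted p under 0.05, and 1 by DESeq2). Hmox1, which breaks heme down, read 544, 352 and 489 CPM in the libraries labelled Bmal1-/- and 982, 625, 2142 and 941 CPM in WT. The groups did not overlap and WT replicate 3 was far the highest, but the log2 fold change of -1.34 had an SE of 0.42 and did not pass (edgeR adjusted p = 0.157). Urod and Alad, of heme synthesis, were at 0.14 and -0.13. Of 13 sterol genes 0 were called (6 unadjusted, 1 by DESeq2), and 11 had fold changes below 0. Over all genes tested, 20.9% had an unadjusted p under 0.05. Cyp7b1, an oxysterol hydroxylase, read 6.35, 6.87 and 8.50 CPM against 11.2, 12.2, 10.2 and 12.2 CPM, a log2 fold change of -0.66 (edgeR adjusted p = 0.0611). Cyp51 and Dhcr7, of cholesterol synthesis, were at -0.23 and -0.19. Of the 4 tested targets of RORα in Purkinje cells 0 were called (1 unadjusted, 1 by DESeq2), with Itpr1, a calcium channel of internal stores, at 0.46 (adjusted p = 0.139), Slc1a6 at 0.34 and Pcp4 at 0.18.

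Over the 7 libraries, the genes whose log2 CPM was most like each member's were found among 14358 genes with a mean of at least 1 CPM. These correlations are descriptions, and the 7 points share their split into the genotype groups. For Nr1d1 they were Nr1d2 (Pearson r = 0.995), Neb (0.993), which encodes the muscle protein nebulin, and Per3 (0.986). For Nr1d2 they were Nr1d1, Per3 (0.991) and Tnnc2 (0.987), a troponin of fast muscle. For Rora they were Ednrb (0.992), the endothelin receptor B gene, Lama3 (0.988) and Cdh20 (0.984). For Rorb they were Gpr63 (0.968), Gabrg1 (0.967), a GABA receptor subunit, and Nbeal1 (0.965), all lowest in WT replicate 3.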

How the data were processed

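PolyA RNA of contused mouse spinal cord was sequenced as 1 library per mouse (TruSeq Stranded mRNA). Reads were checked with FastQC 0.10.1, aligned by the authors with Tophat2 (mm10 and GRCm38 per the labels) and summed over genes with HTSeq 0.10.0. The authors deposited raw counts, which were not normalized. The strand setting and the annotation release of the counting are not given in the sources used here. Totals were 38529644 to 44096737 counts, and 3039 of 21965 genes had no count in any library.

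Genes were filtered with filterByExpr, scaled with TMM and tested on genotype alone with edgeR 4.0.16 (quasi-likelihood, R 4.3.3), adjusted by Benjamini-Hochberg over 15743 genes. Standard errors are the absolute log2 fold change divided by the square root of F. The study's methods used DESeq2, which is an alternative here (1.42.0), as are limma-voom (limma 3.58.1), other scaling factors (RLE, upper quartile), other filters (any gene with 1 count, or a mean of 10 counts), a term for sex, a block for replicate number, and the fit with each library dropped. The block for replicate number was fitted without WT replicate 4, which has no library of the same number in the other group. Replicates are separate mice. The tests were run on simulated data first. RPKM used merged exons of GENCODE M21. Plots were drawn with matplotlib 3.10.9.

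Named genes are the members, Arntl, the clock RORE targets and clock loop, called genes of the other lists or the 3 with the smallest p, genes overlapping a member, and the 3 most correlated with each member. Some metabolic and inflammatory targets that were not called are named as well. Marker lists are given as sums. Members and lists were chosen with earlier results of these data known. Some listed genes are not reported here and were left out of the list counts.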

Additional observations from a re-analysis of the deposited data

Results flagged for a closer look

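Among 37 sets of 4 WT values checked for a library with an unusually wide gap to the rest, 7 stood out. Chance alone marks about 1 in 20 such sets, but sets drawn from the same 4 libraries are not independent of each other. In 6 of the 7 the library was WT replicate 3. Rora was low there at 37.6 CPM, against 47.4 to 49.4 CPM in the other WT libraries, and Rorb was low at 19.5 CPM, against 23.6 to 24.1 CPM. Their sum per length, which was counted as a further set, was 4.64 RPKM there, against 5.79 to 5.91 RPKM. Nr1d1 and Nr1d2 were also lowest in that library, without so wide a gap. Thra (206 CPM, against 279 to 287) and Cry2 (43.2 CPM, against 60.3 to 63.2) were low there too, whereas the muscle gene Mylpf was high (9.93 CPM, against 5.22 to 5.50). In WT replicate 4 the muscle gene Tnnc2 was high (4.39 CPM, against 2.88 to 3.11). With or without WT replicate 3, Nr1d1 and Nr1d2 were called lower, and without it Rora was called higher. Why these libraries differ was not tested.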

How the results depend on the processing

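Nr1d1, Nr1d2 and the ratio of REV-ERB to ROR kept their direction throughout, and the calls of Nr1d1 and Nr1d2 held in every setting but the replicate block. DESeq2 called Rora (0.49), 922 genes lower, 573 higher, 9 RORE targets and 7 genes of the other lists, against 144, 103, 7 and 1 in edgeR. Of the other lists limma-voom and the sex covariate called 0. With a library left out, Rora ranged from 0.40 to 0.52, Rorb from -0.031 to 0.11, Arntl2 from -0.18 to 0.013 and Hlf from -0.18 to 0.13, the last 3 changing sign, and Hlf was -0.012 with upper-quartile scaling. Counts ranged from 27 to 439 genes lower (27 without Bmal1-/- replicate 1, 439 without WT replicate 3), 30 to 291 higher (the same libraries), 4 to 9 RORE targets, 5 to 12 of the clock loop (9 with all libraries) and 0 to 5 of the other lists. The causes of these moves were not tested.

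Replicate numbers did not pair the mice (correlations of same-numbered libraries of -0.17, 0.18 and -0.29). The replicate block was fitted without WT replicate 4, which has no library of the same number in the other group. With it Nr1d1 was -2.51 (edgeR adjusted p = 0.102) and Nr1d2 -2.64 (0.0693). In edgeR 0 genes passed in either direction, hence 0 RORE targets, 0 of the clock loop and 0 of the other lists. Without WT replicate 4 and with no block, 67 genes passed as lower and 58 as higher.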
